A study of Mus musculus with 52 samples.

Results

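The regions described are intergenic sites that carry both CTCF and cohesin in wild-type mouse embryonic fibroblasts. They were chosen by measured values: a CTCF wt peak on chromosomes 1 to 19 that overlapped a Rad21 wt peak by at least 1 bp, with its midpoint in no protein-coding gene and more than 1 kb from every protein-coding 5′ end. Of 58231 autosomal CTCF wt peaks, 39365 had a Rad21 peak, and 17252 of these were intergenic. They make up 29.6% of the autosomal CTCF wt peaks and 43.8% of those with cohesin. The remaining sites with CTCF and cohesin were 17784 gene-body sites and 4329 promoter sites (midpoint within 1 kb of a protein-coding 5′ end).

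Chromatin immunoprecipitation was carried out in female clonal fibroblast lines of an F2 cross between M.m.domesticus FVB and M.m.Castaneus, so that autosomes are recombined mosaics of both genomes. The wt lists come from the wild-type clone Wt2A1, and the mut lists from Mut5A6, a clone with the germline SmcHD1 MommeD1 null mutation derived from littermate embryos. The somKO lists merge A3-3 and D4, CRISPR knockout clones of SmcHD1 that were made in a different wild-type line and are described as triploid. Each genotype is therefore 1 or 2 clones, and clone and genotype cannot be told apart. The merged libraries numbered 3 (wt), 3 (mut) and 4 (somKO) for CTCF, 2, 2 and 4 for Rad21, and 3 each for SmcHD1 in wt and mut. Cells for Rad21 and SmcHD1 were crosslinked with EGS and then formaldehyde, and cells for CTCF with formaldehyde alone. The overlap of CTCF and Rad21 peaks that defines the sites therefore joins chromatin fixed in different ways. Reads of a group were merged before peaks were called, so 1 list stands for each group and no value for a single library can be given. No comparison carries a test for that reason, and the spread quoted is either counting error (95% Wilson interval) or the SD over the 19 autosomes.

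CTCF is a zinc finger protein that binds an asymmetric DNA motif and acts as an insulator. Cohesin is a ring complex that extrudes loops of chromatin, and Rad21 is the subunit that closes the ring. Extruding cohesin is held at CTCF, above all where a pair of motifs point towards each other, so that shared sites mark the anchors of loops and the borders of topologically associating domains. Many such anchors lie far from genes, in deserts where enhancers of developmental regulators are spread. SmcHD1, a protein related to the SMC subunits of cohesin, is known for its role on the inactive X and at some autosomal clusters.

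The DNA letters under the sites are shown first, because the strand of the CTCF motif and its place in repeats return in the results. A matrix of 20 positions was learned from the central 200 bp of the 9576 intergenic sites on odd autosomes. A further matrix, added after the first was seen, was learned from the 2649 of these windows in which RefSeq masks no base as repeat. In the consensus lines a capital marks a base found in at least 50% of the aligned sites.
All windows: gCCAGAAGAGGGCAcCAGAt
Unmasked windows: tggCCACcAGGGGGCaCtat
The unmasked consensus is the form usually given for CTCF. The consensus of all windows differs from it in several bases, and 6 of its 20 positions held 1 base in at least 90% of aligned sites, against 3 for unmasked windows. Short interspersed repeats are known to have spread CTCF motifs through the mouse genome. No repeat family was assigned here.

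The matches of the 3 highest-scoring sites that had one follow, read 5′ to 3′ on the strand of the motif, with the 20 matched bases in capitals (GRCm38, from RefSeq).
Tbx3 to Tbx5, chr5:119713049-119713088, minus strand: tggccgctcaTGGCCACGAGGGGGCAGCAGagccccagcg
C87499 to Ifna13, chr4:88641124-88641163, minus strand: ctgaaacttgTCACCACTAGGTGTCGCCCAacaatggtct
4930467E23Rik to Gm31371, chr8:19784549-19784588, plus strand: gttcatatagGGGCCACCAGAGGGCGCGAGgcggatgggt
These are the strongest CTCF peaks of the group that could be placed on a motif, and all stayed in both other CTCF lists. The next 2 are the highest-scoring sites with an unmasked match that were in none of the 4 other CTCF and Rad21 lists.
Tpm3-rs7 to Gpc5, chr14:114913397-114913436, minus strand: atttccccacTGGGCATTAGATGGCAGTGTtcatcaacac
Klf5 to Klf12, chr14:99632542-99632581, minus strand: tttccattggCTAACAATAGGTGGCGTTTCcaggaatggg
Both lie in long gene gaps of chromosome 14. The following 3 had the highest CTCF score among sites whose match lay in masked sequence and that also matched the matrix of all windows strongly.
Tbx5 to Rbm19, chr5:120104558-120104597, plus strand: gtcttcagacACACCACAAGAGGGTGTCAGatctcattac
Gm7682 to Gm3139, chr5:94490681-94490720, plus strand: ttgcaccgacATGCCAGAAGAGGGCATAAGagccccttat
Snx32 to Ovol1, chr19:5528794-5528833, plus strand: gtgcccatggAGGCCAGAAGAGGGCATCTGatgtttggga
The last 2 lines are neighbouring sites in the gap between Ubash3b and Sorl1 whose motifs point at each other over 233 kb, the convergent pair with the highest summed percentiles in a gap over 500 kb at a spacing of at least 50 kb.
Ubash3b side, chr9:41228860-41228899, plus strand: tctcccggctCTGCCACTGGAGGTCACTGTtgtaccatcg
Sorl1 side, chr9:41461900-41461939, minus strand: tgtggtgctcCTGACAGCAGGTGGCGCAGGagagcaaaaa
Both members of this pair were kept in all 4 other lists, with CTCF wt percentiles of 79.6 and 96.3 and Rad21 wt percentiles of 97.7 and 86.4.

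Intergenic sites were of ordinary width and mostly lay outside any annotated gene. Their peaks were 587 bp wide at the median (quartiles 356 and 1029 bp, range 196 to 9882 bp), beside 581 bp for gene-body sites and 546 bp for promoter sites. The median overlap with the Rad21 peak was 440 bp. Of the 17252 sites, 1552 shared their Rad21 peak with another intergenic site, and the sites lie on 16447 Rad21 peaks in all. Of the 17252, 14957 (86.7%) lay in no gene of any kind, 2034 (11.8%) in a long non-coding RNA gene, and 397 (2.30%) within 1 kb of the 5′ end of such a gene. At the edges of the rule, 73 sites lay no more than 100 bp beyond the 1 kb margin and 90 otherwise similar sites outside genes fell no more than 100 bp short of it. The overlap with Rad21 was 20 bp or less in 14 sites, and 15 intergenic CTCF peaks missed a Rad21 peak by 20 bp or less.

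The sites thinned out steadily with distance from genes. The sequence that could hold one (no protein-coding gene, over 1 kb from a 5′ end, sequenced) measured 1388 Mb, or 58.0% of the sequenced autosomes, and held 12.4 sites per Mb. Gene bodies held 18.4 sites with CTCF and cohesin per Mb, and promoter windows 111. In gaps between protein-coding genes under 50 kb the density was 33.0 per Mb, with 5342 sites in 281 Mb in gaps of 50 to 200 kb, then 11.1 in gaps of 200 to 500 kb, 6.64 in gaps of 500 kb to 1 Mb and 4.14 in gaps over 1 Mb. The 601 gaps over 500 kb make up 50.3% of the eligible sequence and held 3511 sites, or 20.4%. The density in shorter gaps was 3.95 times that in gaps over 500 kb, and the ratio lay between 2.39 and 5.32 on the single autosomes, above 1 on all 19. Gene-poor sequence thus held sites at lower density on every autosome, but it was seldom empty: 11 of the 601 gaps over 500 kb had no site.

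Distance to the nearest protein-coding 5′ end gave the same order. The median was 29.8 kb (quartiles 10.7 and 89.9 kb). Density fell from 34.5 sites per Mb at 1 to 5 kb to 19.5 at 20 to 50 kb, 8.57 at 100 to 200 kb and 2.85 beyond 500 kb, where 707 sites lay. Among the autosomes, chromosome 11 was the densest with 22.5 sites per Mb and chromosome 3 the sparsest with 8.99 (12.8 ± 3.48 per Mb, SD, n = 19 chromosomes).

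**Figure D1:**
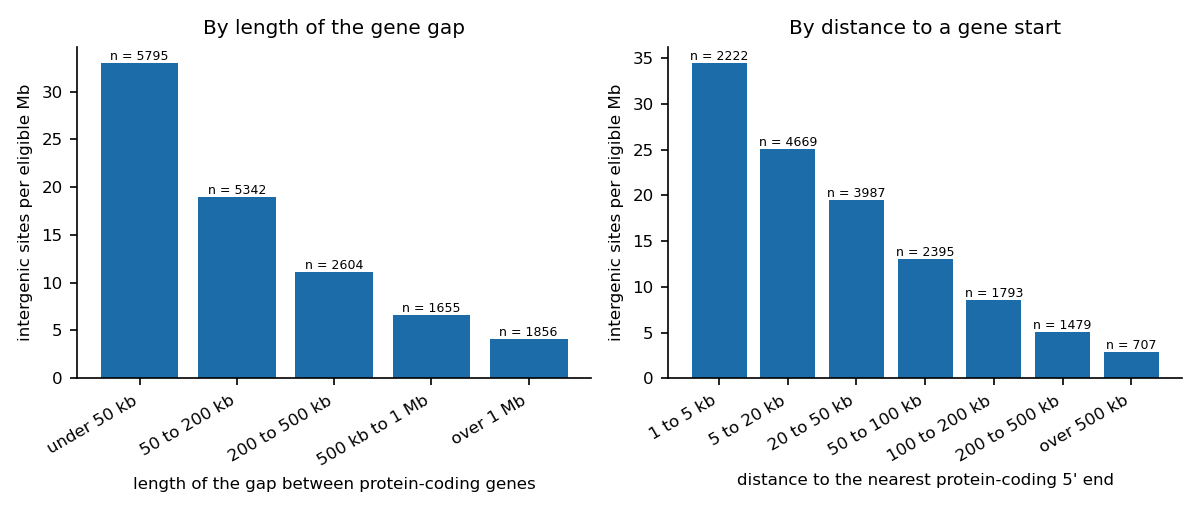
Intergenic sites with CTCF and cohesin per Mb of eligible autosomal sequence, by the length of the gap between protein-coding genes (left) and by distance to the nearest protein-coding 5′ end (right); the number above a bar is the count of sites. Density falls at every step, from 33.0 to 4.14 per Mb with gap length and from 34.5 to 2.85 per Mb with distance.

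The most remote sites ranked lower than the rest. Ranks are given as percentiles of the autosomal peaks of a list by score, and the 707 sites beyond 500 kb had medians of 55.3 for CTCF and 69.1 for Rad21, the lowest of the 7 distance classes, against 67.0 and 75.0 over all intergenic sites. The site farthest from a 5′ end, at chr14:91014756-91015063 between Pcdh20 and Pcdh9 (protocadherin genes of neural cell adhesion), lay 2544 kb from Pcdh20, with percentiles of 57.4 for CTCF and 88.8 for Rad21. It was absent from both mut lists and present in both somKO lists. The next lay 2195 kb from Pik3c3 on chromosome 18 and 2124 kb from Tenm3 on chromosome 8, with CTCF percentiles of 67.5 and 81.5, and both were kept in all 4 lists. The longest gap without any site was 2.77 Mb between Cox7c and Edil3 on chromosome 13, which held no CTCF wt peak at all. It was followed by 1.66 Mb between Pom121l12 and Vstm2a on chromosome 11, also without a CTCF wt peak, and by 0.810 Mb between Nphp4 and Ajap1 on chromosome 4, which held 6 CTCF wt peaks and no site.

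The gaps over 500 kb with the most sites were of different kinds. The gap between Med13l and Tbx3 on chromosome 5 led with 35 sites in 0.905 Mb (38.7 per Mb). Tbx3 encodes a T-box transcription factor of limb and heart development, and Med13l a subunit of the Mediator kinase module. Among the next, the 1.74 Mb between Olfr1507 and Dad1 on chromosome 14, where the T-cell receptor alpha and delta locus lies, held 29. Gene segments of this locus have annotation types of their own and are not counted as protein-coding, so that the gap appears as gene-free. Of the 29 sites in it, 28 were kept in all 4 other lists, whereas 5 of the 35 between Med13l and Tbx3 were. The fullest windows of 1 Mb were chr5:149000001-150000000 (34 sites, 8 protein-coding genes including Hmgb1 and Hsph1), chr15:99000001-100000000 (33 sites, 28 genes) and chr11:95000001-96000000 (32 sites, 21 genes including Dlx3 and Dlx4). Of 2473 windows on the autosomes, 2254 held a site, with a median of 6.

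Neighbouring intergenic sites lay 50.0 kb apart at the median (quartiles 10.4 and 156 kb). Gene-body sites lay closer to one another, at 35.4 kb, and promoter sites farther apart, at 174 kb. The chromosome medians of intergenic sites ran from 30.8 kb on chromosome 11 to 65.4 kb on chromosome 13 (52.1 ± 10.9 kb, SD, n = 19). Close neighbours were common: 24.5% of the distances were under 10 kb, beside 24.9% for gene-body sites and 8.77% for promoter sites. Long distances were less common than among promoter sites, with 6.27% over 500 kb against 5.45% for gene-body sites and 1164 of 4310 promoter pairs. Within a gap, neighbours lay 15.0 kb apart at the median (9972 pairs, 57.9% of all), and 136 kb apart where a protein-coding gene came between them. Requiring the CTCF and Rad21 peaks to share 50% of both left 9145 sites, 116 kb apart at the median.

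Most sites nevertheless stood alone at short range. Linking neighbours at 10 kb or less left 10134 single sites (58.7%), 2039 pairs, 571 groups of 3 and 294 groups of 4 or more, the largest with 9 sites. Counting every class, the nearest other site with CTCF and cohesin lay 10.9 kb away at the median, and it was intergenic for 77.1% of the sites, gene-body for 14.6% and promoter for 8.29%. The longest distance between neighbouring intergenic sites, 4.46 Mb on chromosome 8 between the flanks of Klhl36 and Pgbd5, held 203 gene-body and promoter sites. GENCODE places a single protein-coding gene, Gm20388, over 4.43 Mb there, so that only 0.0247 Mb of the stretch could hold an intergenic site, against 2.17 Mb if that gene were left out. All 203 sites lie inside Gm20388, and the distance describes this annotation. The next 2 lay on chromosome 7 in clusters of Vmn1r and Vmn2r pheromone receptor genes. One spanned 4.01 Mb with 102 protein-coding genes, 5 CTCF wt peaks and 1 site of another class with cohesin, and the other 3.97 Mb with 39 genes, 7 CTCF wt peaks and 3 such sites. Of these stretches 3.38 and 3.09 Mb could have held an intergenic site.

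**Figure D2:**
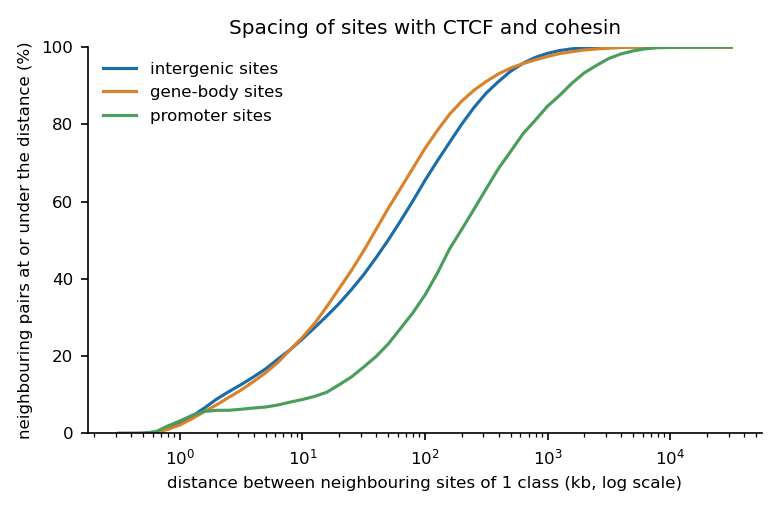
Cumulative share of neighbouring pairs (y, percent) at or under a given distance (x, kb, log scale) for intergenic, gene-body and promoter sites, each spaced among sites of its own class. The median is 50.0 kb for intergenic, 35.4 kb for gene-body and 174 kb for promoter sites.

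The regulatory deserts of developmental genes differed in how many sites they held. The 1.71 Mb between Kcnj2, a potassium channel gene, and Sox9, the transcription factor of cartilage and gonad development, held 20 sites, of which 11 were kept in all 4 lists. Over all intergenic sites 78.3% were kept in all 4 lists. The first lay 369 kb from Kcnj2, 5 sites stood between 447 and 462 kb, and the last 2 lay at 1703 and 1704 kb, next to Sox9. These last 2 had CTCF percentiles of 92.1 and 2.01. Both carried the same Rad21 percentile, 99.1, as close sites on a shared Rad21 peak do, so it does not count as 2 measurements. The median CTCF percentile in the gap was 42.1, against 67.0 over all intergenic sites. Every site lost from CTCF mut there stood at 25.6 or lower. The 0.586 Mb between Epha4 and Pax3, a stretch known for limb malformations when its borders are lost, held 9 sites, and 8 of these were kept in all 4 lists. The exception lay 290 kb from Epha4 with a CTCF percentile of 11.5 and was lost from CTCF mut and Rad21 mut. In the gap between Mtx2 and Hnrnpa3, on the telomeric side of the HoxD cluster, 16 sites were counted, 11 of them kept in all lists, and on the centromeric side between Lnpk and Atp5g3 there were 4, all kept.

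Among the other gaps of this kind, sites between Myc and Gsdmc numbered 14 in 1.79 Mb (13 kept in all 4 lists), and those between Bmp2 and Hao1 9 in 0.934 Mb (8 kept). There were 6 between Sox2 and Atp11b, all kept. In the desert between Shh, a signalling gene of limb and neural tube, and Rnf32, 2 sites lay 567 kb apart and both were kept. The gap between Irx3 and Irx5 held 2 sites 103 kb apart, of which 1 was lost from Rad21 mut. In the short gap between Six3 and Six2, 3 sites lay in 0.0550 Mb, and 2 of them were kept in all lists. Over these 10 gaps, the longest distance between neighbouring sites within a gap was the 567 kb in front of Shh. SmcHD1 wt peaks overlapped none of the sites in them. Over all intergenic sites the share was 1.96%, and 1.49% outside chromosome 5, so this does not set these gaps apart.

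Intergenic sites ranked high among CTCF peaks. Their median CTCF wt percentile was 67.0 (quartiles 46.1 and 83.2), beside 65.0 for gene-body sites, 55.6 for promoter sites and 23.0 for the 8485 intergenic CTCF peaks without Rad21. Their Rad21 peaks stood at a median percentile of 75.0, against 71.4 and 66.8 for the other classes. Since the members were chosen for a Rad21 peak, the height of these ranks against peaks without one describes the choice. The share of intergenic CTCF peaks with Rad21 rose with the CTCF score: with the CTCF wt list divided by score into 5 classes of equal size, numbered from the lowest, it went from 24.7% in the lowest class to 42.1%, 71.6%, 93.8% and 98.9% in the highest. For gene-body peaks the lowest and highest classes stood at 24.9% and 99.1%. Across the 17252 sites, Spearman's rho between CTCF and Rad21 scores was 0.66, as a description within a single pair of lists that share the cell line. Both percentiles were at least 80 in 4052 sites (23.5%). Ranks were lower in gene-poor sequence: the median CTCF percentile fell from 70.9 in gaps under 50 kb to 59.8 in gaps over 1 Mb, and the median width from 690 to 458 bp. For Rad21 these medians were 75.5 and 72.5.

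The extremes of the score lay in particular places. The highest CTCF score belonged to chr19:61266497-61267161 between Csf2ra and Gm21060, whose Rad21 percentile was 85.1, and which overlapped a SmcHD1 peak in wt and in mut alike. The second was a peak of 3458 bp at chr5:119711298-119714755, 28.3 kb from Tbx3 towards Tbx5, with a Rad21 percentile of 99.99. The third, chr11:3125277-3126097, lay 6.16 kb from Sfi1, with no protein-coding gene before it on the chromosome. All 3 were kept in the 4 other CTCF and Rad21 lists. A SmcHD1 wt peak overlapped all 3, and a SmcHD1 mut peak the first only. The part of copy number or background signal in these scores was not tested. Among the sites with the lowest CTCF score in the list, the first by the rule, on chromosome 11 between Slc47a1 and Rnf112, was lost from all 4 lists. The second, on chromosome 6 between Hrh1 and Atg7, was kept in Rad21 somKO alone, and the third, on chromosome 11 between Pdlim4 and P4ha2, in CTCF somKO alone.

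Most intergenic sites were found again in the lists of SmcHD1-deficient cells, and fewer in mut than in somKO. A site was called lost where no peak of the other list overlapped it by 1 bp. From the CTCF mut list 1943 sites were lost, or 11.3% (interval 10.8 to 11.7%), and from CTCF somKO 482, or 2.79% (2.56 to 3.05%). Over all 58231 autosomal CTCF wt peaks the losses were 19.6% and 7.72%. From Rad21 mut 3018 sites were lost, or 17.5% (16.9 to 18.1%), and from Rad21 somKO 260, or 1.51% (1.34 to 1.70%). Over the 39365 CTCF wt peaks with Rad21 these losses were 15.4% and 1.68%. In all 4 lists 13515 sites were kept, 78.3% (77.7 to 78.9%), beside 80.0% of all sites with CTCF and cohesin. The CTCF background includes peaks without cohesin, and of the intergenic ones 41.1% were lost from CTCF mut and 18.1% from CTCF somKO. Among the other sites with cohesin, CTCF mut lacked 9.62% of gene-body and 5.27% of promoter sites, both below the intergenic share. For CTCF somKO these shares were 2.69% and 3.90%. The Rad21 losses and the share kept lie near their background, which covers sites with cohesin only. The mut and somKO comparisons share the wt lists, and the somKO lists are longer (67258 CTCF and 87288 Rad21 autosomal peaks, against 56129 and 64520 in mut and 58231 and 65769 in wt). With an overlap of 50% of both peaks asked for, losses rose to 22.8% and 13.4% for CTCF and to 58.0% and 58.3% for Rad21. The Rad21 losses of the mut and somKO lists were then nearly equal.

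Against the other classes, intergenic sites were lost from mut lists more often than promoter sites. CTCF mut lacked 9.62% of gene-body sites and 5.27% of promoter sites, and Rad21 mut lacked 16.4% and 3.19%. The intergenic share was above the promoter share on all 19 autosomes for both antibodies, by 6.07 ± 1.99 points for CTCF and 14.3 ± 3.35 points for Rad21 (SD, n = 19). The difference from gene-body sites was smaller, at 1.60 ± 1.60 points for CTCF (higher on 17 of 19 autosomes) and 1.19 ± 2.27 points for Rad21 (higher on 14 of 19). For CTCF mut the overall intervals of the intergenic and gene-body shares do not meet (10.8 to 11.7% and 9.20 to 10.1%). These intervals cover counting error over peaks and leave out the spread over chromosomes. The excess over promoter sites depended on the overlap rule: at 50% of both peaks Rad21 mut lacked 68.8% of promoter and 58.0% of intergenic sites, and CTCF mut 20.9% and 22.8%. In somKO the order was not the same. Promoter sites were lost from CTCF somKO more often (3.90%) than intergenic sites (higher intergenic share on 3 of 19 autosomes), and gene-body sites differed from intergenic ones by 0.00852 ± 0.713 points. Within the lowest 2 classes of CTCF wt score, the order was the reverse, with 16.8% of promoter and 28.1% of intergenic sites lost in the lowest and 1.73% and 6.05% in the next, while in class 3 the shares were 0.963% and 0.275%. The lowest class held 20.7% of promoter but 7.11% of intergenic sites. With 50% overlap asked for membership the shares were 1.44% for promoter and 1.67% for intergenic sites.

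The lists that lost a site overlapped in part. In 1554 sites (9.01%) Rad21 mut was the only list to lack a peak. Both mut lists and neither somKO list lacked 1043 (6.05%), and CTCF mut alone lacked 459 (2.66%). No other pattern reached 1%, and 47 sites were in none of the 4 lists. Of the sites lost from CTCF somKO, 77.0% were also lost from CTCF mut, and of those lost from CTCF mut, 19.1% were lost from CTCF somKO. For Rad21 these shares were 83.8% and 7.22%. In mut, 1325 sites lacked both antibodies, 618 CTCF alone and 1693 Rad21 alone.

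Loss followed the score of the site in wt. Sites kept in CTCF mut had a median CTCF wt percentile of 70.8 and those lost 26.1; for CTCF somKO the medians were 67.9 and 10.6. By Rad21 wt percentile, sites kept in Rad21 mut stood at 79.6 and those lost at 45.9. In the lowest score class of the CTCF wt list 58.0% of the 1226 intergenic sites were lost from CTCF mut, then 37.9%, 10.4%, 0.887% and 0.135% in the highest class. CTCF somKO lacked 28.1% in the lowest class and 6.05% in the next, and 0 of the 10274 sites in the upper 2 classes, which allows a share of up to 0.0292%. Of these high-ranked sites, 7 in the highest class were missing from CTCF mut, and 54 (1.04%) from Rad21 mut. Within the lower 3 classes, intergenic sites were lost from CTCF mut more often than gene-body sites (58.0 against 49.3%, 37.9 against 29.2% and 10.4 against 7.66%) and far more often than promoter sites (17.7%, 7.91% and 1.65%), with intervals that do not meet.

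**Figure D3:**
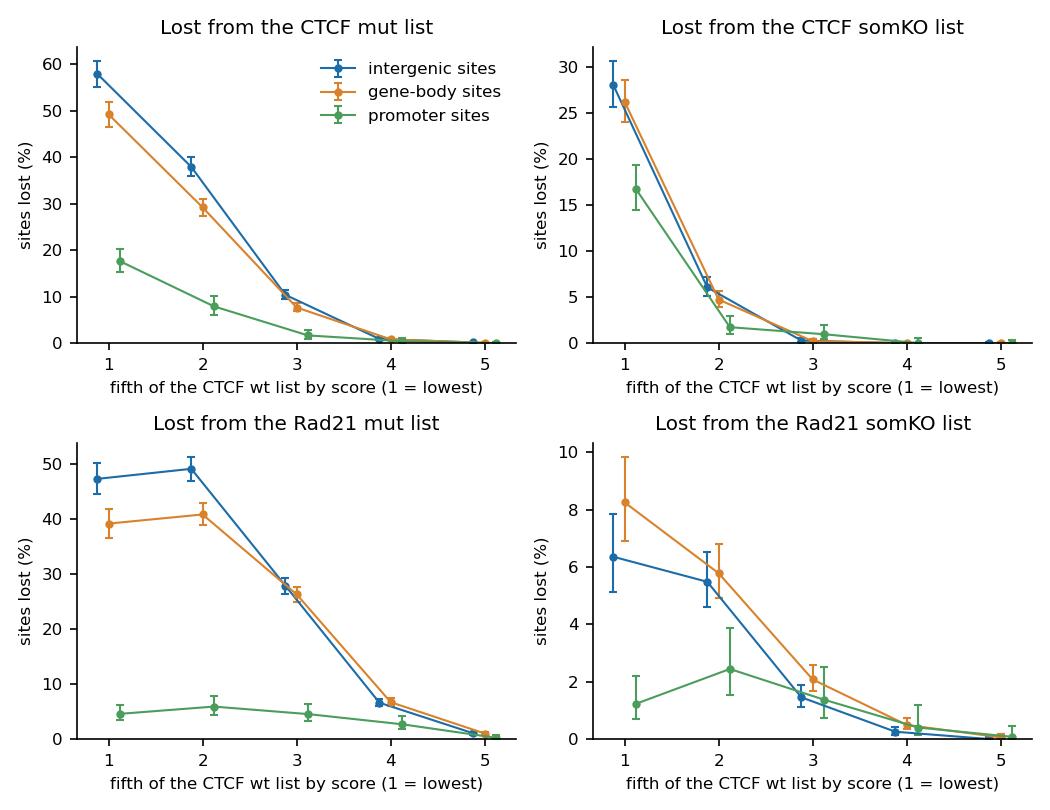
Share of sites lost (y, percent, with 95% Wilson intervals) from the CTCF mut, CTCF somKO, Rad21 mut and Rad21 somKO lists, by score class of the CTCF wt list (x, 1 = lowest), for intergenic, gene-body and promoter sites; the y axes differ between panels. Intergenic losses from CTCF mut fall from 58.0% in the lowest class to 0.135% in the highest.

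Low-scoring sites often sat beside another CTCF peak. Of the sites in the lowest class, 59.6% had another CTCF wt peak within 2 kb, against 26.2% of all intergenic sites, and among the sites lost from CTCF somKO the share was 47.9%. In the lowest class, CTCF mut lacked 53.8% of the 731 sites with such a neighbour and 64.2% of the 495 without, and CTCF somKO 29.3% and 26.3%. Rad21 mut lacked 40.8% of the sites with such a neighbour and 56.8% of those without, and the Rad21 somKO share was also higher without one. Within the lowest class, sites without such a neighbour were thus lost more often from CTCF mut and Rad21 mut. The shares for the somKO lists differed by fewer points. No intervals were computed for these groups, so the somKO differences are not read as a pattern. The part of neighbouring peaks in these losses was not tested.

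Sites in long gene gaps were lost more often, least clearly from Rad21 somKO. CTCF mut lacked 9.08% (8.36 to 9.84%) of the sites in gaps under 50 kb and 17.4% (15.7 to 19.2%) of those in gaps over 1 Mb, with 10.4%, 11.6% and 14.3% in between. In CTCF somKO the ends of the range were 1.83% and 3.88%, and in Rad21 mut 16.4% and 22.2%. In Rad21 somKO they were 1.57% (1.28 to 1.92%) and 2.26% (1.68 to 3.04%), with intervals that overlap. The Rad21 somKO shares in between, 1.27%, 1.38% and 1.39%, were below both ends. Beyond 500 kb from a 5′ end 22.2% of the sites were lost from CTCF mut and 27.6% from Rad21 mut. Rank also fell with gap length, as given above, but the difference for CTCF mut was present within score classes 2 to 4. In class 2, 49.9% of sites in gaps over 500 kb were lost, against 33.5% in shorter gaps. Class 3 gave 129 of 919 (interval 11.9 to 16.4%) against 9.16%, and class 4 1.97% against 0.582%. Class 5 gave 0.696% against 0.0446%, a difference that rests largely on a single gap, as given below. In class 1 119 of 187 sites and 592 of 1039 were lost, with intervals that overlap. For Rad21 mut classes 1 to 4 gave 53.5 against 46.1%, 51.7 against 48.1%, 27.1 against 28.1% and 78 of 1118 against 257 of 3954, with intervals that overlap. In class 5 the Rad21 mut shares were 2.09% (1.27 to 3.42%) and 0.870% (0.637 to 1.19%), with intervals that do not meet. Most of the 15 class 5 sites in gaps over 500 kb lost from Rad21 mut lay in a single gap, between Med13l and Tbx3. The same holds for the 5 lost from CTCF mut. The class 5 differences rest largely on this gap, and shares without it were not computed. The class 5 differences are therefore not read as a difference between long and short gaps in general.

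The losses differed between chromosomes. Loss from CTCF mut ran from 4.82% on chromosome 17 to 19.7% on chromosome 14 (11.3 ± 3.54%, SD, n = 19), and loss from Rad21 mut from 10.1% to 25.7% on the same 2 chromosomes (17.6 ± 4.54%). Chromosome 14 also stood highest in CTCF somKO (5.22%) and Rad21 somKO (3.19%). Gene-body sites of chromosome 14 were lost from CTCF mut at 20.0%, so that its high value was not limited to intergenic sites. Without chromosome 14 the intergenic losses were 10.9% for CTCF mut and 17.2% for Rad21 mut. Autosomes of these lines are mosaics of both parental genomes, and the part of strain variants or copy number in these values was not tested.

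**Figure D4:**
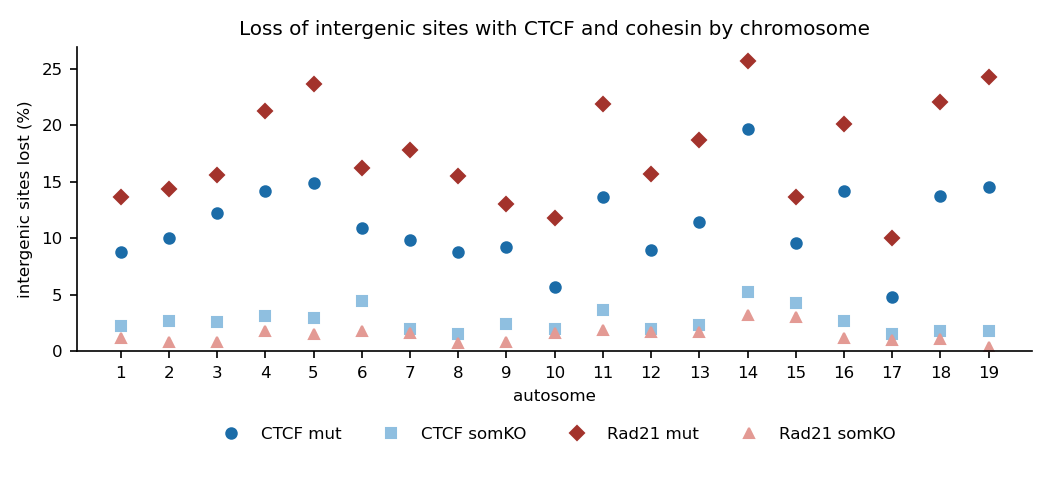
Share of intergenic sites lost (y, percent) on each autosome (x) from the CTCF mut, CTCF somKO, Rad21 mut and Rad21 somKO lists; each point is 1 chromosome of 545 to 1351 sites. Chromosome 14 is highest in CTCF mut at 19.7% and in Rad21 mut at 25.7%, and chromosome 17 lowest at 4.82% and 10.1%.

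Most lost sites were not next to another lost intergenic site. Of the sites lost from CTCF mut, 71.1% had both intergenic neighbours kept, 18.2% formed runs of 2, and 40 sites fell in 7 runs of 5 or more. For Rad21 mut 60.2% were single, 24.2% formed runs of 2, and 98 sites fell in 14 runs of 5 or more. Shares for losses placed without regard to neighbours were not computed, so these values do not show whether losses cluster. Of the 482 lost from CTCF somKO 453 were single. The longest CTCF mut runs had 7 sites each: one spans 2273 kb on chromosome 14 from the gap after Rpl36a-ps1 to Tbc1d4, around the Krüppel-like factor genes Klf5 and Klf12, and the other 253 kb between Med13l and Tbx3. The next had 6 sites over 1661 kb between Gpc5 and Sox21 on chromosome 14. In CTCF somKO the longest run, 5 sites over 1542 kb between Klf5 and Prr30, lay inside the chromosome 14 run of mut, and the second, 4 sites over 1259 kb between Pcdh9 and Klhl1, was on the same chromosome. The third had 2 sites between Cetn3 and Mef2c on chromosome 13. The run of 5 had a median CTCF wt percentile of 34.2, and its sites were all lost from Rad21 mut too and 3 of them from Rad21 somKO.

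The gap between Med13l and Tbx3 stood apart from other gaps. CTCF mut lacked 21 of its 35 sites and Rad21 mut 29, while each somKO list lacked 1. Among the 95 gaps over 500 kb with at least 10 sites, the median share lost was 16.7% for CTCF mut and 18.8% for Rad21 mut, and 60.0% and 82.9% in this gap. The longest run lost from Rad21 mut in the genome, 22 sites over 657 kb, was here. Several of the lost sites ranked high in wt: the site 75.2 kb from Med13l had a CTCF percentile of 95.1 and was lost from both mut lists, and the site at 392 kb one of 87.0. The 14 sites that CTCF mut kept fell from a median percentile of 94.3 in wt to 35.1 in mut, and the somKO percentile over the sites of the gap was 78.7 at the median. All peaks in the gap numbered 49 (wt), 14 (mut) and 59 (somKO) for CTCF, and 87, 6 and 131 in the same order for Rad21. The SmcHD1 lists had 50 there for wt and 0 for mut. The 5 sites kept in all 4 lists lay 8.14 to 114 kb from Med13l. SmcHD1 wt peaks overlapped 6 of the 35 sites. The part of copy number, strain or SmcHD1 itself in the losses of this gap was not tested. In the gap between Pcdh20 and Pcdh9 on chromosome 14, 8 of 13 sites (61.5%) were lost from CTCF mut.

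**Figure D5:**
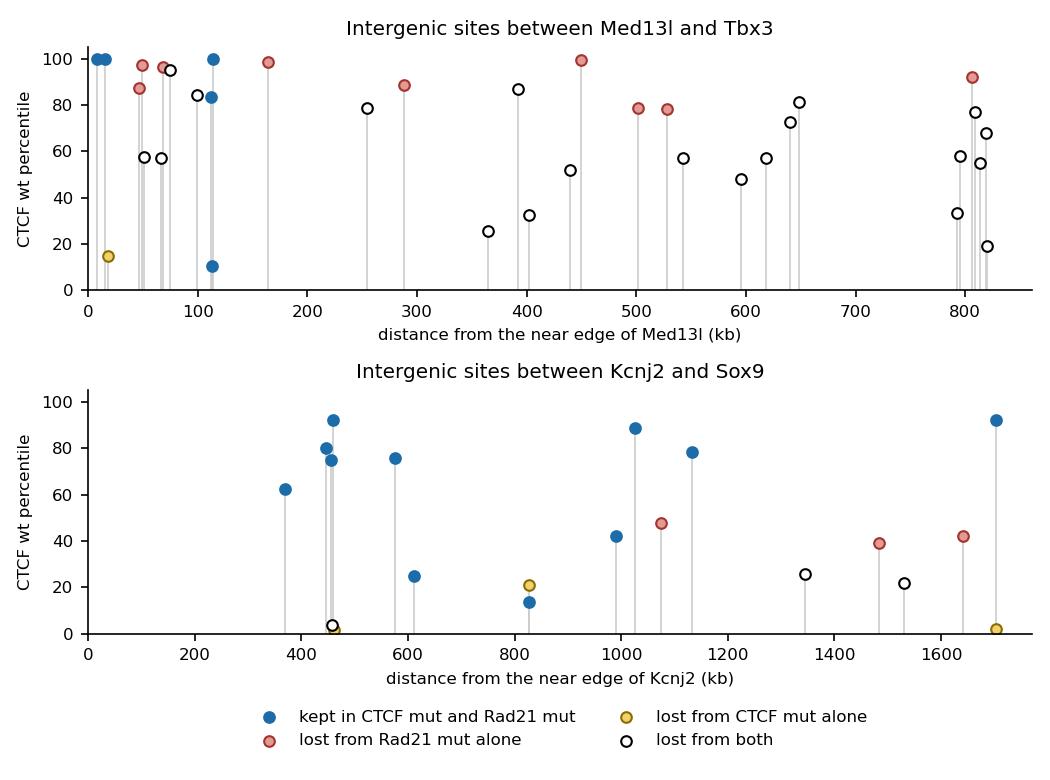
Intergenic sites in the gaps between Med13l and Tbx3 (top) and between Kcnj2 and Sox9 (bottom), by distance from the near edge of the first gene (x, kb) and CTCF wt percentile (y); fill shows whether the site was kept in both mut lists, lost from 1 of them or lost from both. Of the 35 sites at the top CTCF mut lacks 21 and Rad21 mut 29, and of the 20 at the bottom each lacks 6.

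The CTCF motif was found at the midpoint of many of the sites. With the matrix of all windows, 49.4% (48.3 to 50.5%) of the 7676 sites on even autosomes had a match at a threshold that 5% of windows shifted by 5 kb also pass, and 53.2% (52.1 to 54.4%) with the matrix of unmasked windows. Gene-body sites had nearly the same shares, 49.4% and 53.3%, so the share does not set intergenic sites apart from them. For promoter sites the shares were 27.6% and 35.5%. For intergenic CTCF peaks without Rad21 they were higher, 57.2% and 61.2%. The deposited lists give no summit, so the window was set on the midpoint. Over all autosomes, including those the matrix was learned from, 52.6% of sites matched the matrix of unmasked windows. By score class this share was 44.0% in the lowest, then 76.6%, 71.6%, 50.4% and 33.6% in the highest. The median widths in the same order were 270, 264, 388, 677 and 1143 bp. The lowest class thus had few matches at a narrow width, and in windows of 400 bp its share was 44.5%. Among the 5256 sites of at most 400 bp 80.9% had one. Matches lay 31 bp from the midpoint at the median and fell evenly on the strands (50.1% plus).

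Sites whose motif lay in repeat-masked sequence ranked lower and were lost from the mut lists more often. Matches to the unmasked matrix were found in unmasked sequence in 5614 sites and in masked sequence in 3455. Their median CTCF wt percentiles were 66.1 and 46.6, and Rad21 percentiles 75.6 and 57.1. Rad21 mut lacked 15.0% (14.1 to 15.9%) of the first and 36.4% (34.9 to 38.1%) of the second, and CTCF mut 9.21% and 22.0%. All 4 lists kept 81.6% and 57.7%. CTCF somKO lacked 1.85% of the first, 2.98% of the second and 3.36% of the 8183 sites with no match. Within classes by CTCF score, Rad21 mut lacked 51.9% of sites with an unmasked and 58.8% with a masked match in class 1, 43.2 and 57.5% in class 2, 24.1 and 35.6% in class 3, 5.30 and 11.9% in class 4 and 0.768 and 2.52% in class 5, with intervals that meet in classes 1 and 5. For CTCF mut the same classes gave 56.1 and 63.9%, 37.0 and 40.3%, 10.5 and 11.7%, 0.629 and 2.01%, and 0.0698 and 1.26%, with intervals that meet in classes 1 to 3. In CTCF somKO the masked share was the lower in classes 1 to 3 (25.1 and 20.5%, 7.22 and 3.19%, and 0.568 and 0.0835%), with intervals that do not meet in class 2. Classes by CTCF score do not hold the Rad21 rank fixed, so the Rad21 mut shares within them are not at equal Rad21 rank. Read alignment in repeats can differ from that in single-copy sequence, and its part was not tested.

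The strands of neighbouring motifs depended on distance. In 4946 pairs of neighbouring intergenic sites that both had a match to the unmasked matrix, 23.4% were convergent, 55.3% pointed the same way and 21.3% were divergent. Under 10 kb, 16.9% (14.8 to 19.3%) were convergent and 25.2% (22.7 to 27.9%) divergent. The convergent share was 18.5% at 10 to 50 kb, 24.9% at 50 to 200 kb and 33.2% (30.6 to 36.1%) beyond 200 kb, where the divergent share was 14.8% (12.9 to 17.0%). The pairs with no site of another class between them gave 17.0% convergent under 10 kb and 32.3% beyond 200 kb. At a threshold that 1% of shifted windows pass convergent pairs numbered 107 of 667 under 10 kb and 33.9% beyond 200 kb over all pairs. A match is a description of the letters, and no binding site was mapped here.

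SmcHD1 peaks were rare at intergenic sites. A SmcHD1 wt peak overlapped 339 of the 17252 (interval 1.77 to 2.18%), beside 1.20% of gene-body sites, 6.65% of promoter sites and 2.12% of intergenic CTCF peaks without Rad21. A SmcHD1 peak of the mut list, where the protein is absent, overlapped 16 sites (0.0927%), and 12 sites had a peak in both lists. Chromosome 5 held 102 of the 339 (7.58% of its sites), and without it the share was 1.49%. Sites with a SmcHD1 wt peak had a median CTCF wt percentile of 86.0 and those without 66.6. Chromatin for SmcHD1 and Rad21 was fixed in another way than chromatin for CTCF, and its part in the overlap was not tested.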

How the data were processed

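Peak lists of CTCF, Rad21 and SmcHD1 were analysed; the inputs and the H3K27me3 libraries were not used here. The authors mapped reads with bowtie2 to an mm10 index whose strain variants were masked, merged the reads of a group and ran MACS2 for narrow peaks. Its version, and whether inputs entered the call, are not given in the sources used here. The score column that the authors deposited starts at 13 in all 8 lists, was taken as rising with significance, and served only to rank and filter peaks within a list. The lists hold no counts, so depth is unknown and intervals cover counting error over peaks only.

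Peaks were overlapped with own code (Python 3.11.15, pandas 2.3.3, numpy 2.4.6), which was tested on simulated lists and a planted motif. Genes were taken from GENCODE M21 and sequence from RefSeq GRCm38. The motif matrix was learned on odd autosomes and scanned in windows of 200 bp, against windows shifted by 5 kb that hold no CTCF wt peak. The shares with a match that carry intervals are for even autosomes. The values by score class, width, repeat masking and strand order cover all autosomes, so they include sites the matrix was learned from. Named sites and gaps were taken by fixed rules: the 3 highest and lowest scores, the 3 most distant sites, the 3 fullest windows of 1 Mb and gene gaps, the 3 longest distances and runs, and the gaps of 12 gene pairs. One of the fullest gaps and 2 of the gene pairs are not reported here. The empty gaps, the gaps ranked by share lost and the sites in none of the 4 lists were chosen after values were seen. The members and lists were chosen with earlier results of these data known.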

Additional observations from a re-analysis of the deposited data

How the results depend on the processing

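Of 61 values recomputed under another setting, 37 stayed within their error (counts within 1.5 times); these are single values with no direction. Orders between them turned in some settings. An overlap of 50% of both peaks for the fate gave losses of 22.8% (CTCF mut), 13.4% (CTCF somKO), 58.0% (Rad21 mut) and 58.3% (Rad21 somKO), with 20.5% kept in all 4 lists, so that Rad21 somKO came level with Rad21 mut and promoter sites (68.8%) passed intergenic ones in Rad21 mut. The same overlap for membership left 9145 sites with a median spacing of 116 kb and a median CTCF percentile of 65.0; CTCF somKO lacked 1.67% (promoter 1.44%, below it), Rad21 mut 20.9% and Rad21 somKO 1.96%, and 76.6% were kept. At a score of at least 50 the losses were 9.40% (CTCF mut), 1.62% (CTCF somKO) and 1.19% (Rad21 somKO), and 79.9% were kept. With lists of each antibody cut to equal length they were 10.5% (CTCF mut), 3.76% (CTCF somKO) and 2.19% (Rad21 somKO). SmcHD1 wt peaks lay at 1.65% of sites by midpoints within 500 bp and at 1.49% without chromosome 5. Motif shares on even autosomes were 25.7% at 1% of shifted windows, 57.6% in windows of 400 bp and 53.2% with the matrix of unmasked windows. That matrix and the omission of chromosome 5 were chosen after seeing the data. For these differences the cause was not tested. Defining intergenic by all GENCODE genes, moving the margin to 5 kb and leaving out chromosome 14 kept every value within its error. No paired analysis was possible because replicates were merged before peak calling, and for the same reason no replicate could be left out.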
